A study of Mus musculus with 15 samples.

Results

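The genes described here are those whose mRNA was lower in F4/80-high CD11c-negative macrophages of steatohepatitic mouse livers than in both other macrophage populations of the study. A gene belonged to the set when its mean log2 signal in the CD11c-negative disease cells lay at least 1 below the mean of wildtype cells and at least 1 below the mean of CD11c-positive disease cells. Of 13390 genes measured, 109 met that rule (0.814%). The rule leaves out 12 dendritic cell and antigen presentation genes by name, 10 of which had met it, so the set holds 99 genes. The mirrored rule, a mean at least 1 above both other groups, was met by 79 genes. The dip of a gene is the smaller of its 2 distances, on the log2 scale. Since the set was chosen on these distances, they are given as a description with no test; the comparison of CD11c-positive disease cells with wildtype cells is not part of the rule, though it uses the same arrays, and is tested.

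Macrophages were sorted from livers of male mice in 3 groups of 5 samples. Wildtype mice fed standard diet (group WT_SD) gave CD11c-negative cells; the sources used here give no age for these mice. Mice lacking the melanocortin 4 receptor (MC4R-KO) were fed Western diet for 20 weeks from 8 weeks of age, developed nonalcoholic steatohepatitis (NASH) per the labels, and gave CD11c-negative and CD11c-positive cells (groups MC4R_WD CD11c-negative and MC4R_WD CD11c-positive). The melanocortin 4 receptor acts in the brain to limit food intake, and its loss makes mice obese. Genotype and diet differ together between wildtype and disease cells and cannot be told apart. Each sample was RNA pooled from 7 to 9 mice. The labels do not say whether the 5 samples of a group came from separate pools. The spread between arrays of a group on 1 slide (median SD 0.0362 to 0.0611) was no larger than that between repeated spots of a probe on 1 array (0.0589 to 0.0711), so the p-values below cover only the variation among these samples, and that may be technical. In sorted bulk cells, fewer cells of a type and less RNA per cell cannot be told apart.

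Liver F4/80-high cells are mostly Kupffer cells and macrophages that arise from monocytes. CD11c, the integrin subunit encoded by Itgax, is carried by dendritic cells and by some macrophages, and in fatty liver disease CD11c-positive macrophages gather around dying, lipid-laden hepatocytes. Conventional dendritic cells capture antigen and present it to T cells, and their development depends on transcription factors that include PU.1 and interferon regulatory factors. Natural killer cells carry receptors of the killer cell lectin-like (Klr) family and kill targets with granzymes.

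The regions just upstream of these genes are shown first because the genes share a pattern of expression and many are known in lymphoid or dendritic cells, where PU.1, interferon regulatory and RUNX factors act. RefSeq promoter windows (GRCm38.p6, 250 bases before to 50 after the start) were held for 76 of the 99 genes, and the first was used for the 16 with several. Capitals mark matches, on either strand, to the PU.1 motif GAGGAAGT, to the interferon response element GAAANNGAA, to the composite element of PU.1 with an interferon regulatory factor, GGAANNGAA, or to the RUNX motif TGTGGT; matches of different motifs can share letters. The stretches below are written 5′ to 3′ on the strand of the gene, end upstream of the start site and come from genes of the different roles described further on. They were taken only from windows that held a match, so they do not show how common a motif is in the set.
Gpr141b (chr13:19732952-19732978, - strand): taagtcgttgggagtGAAAACGAAaat
Clnk (chr5:38876808-38876860, - strand): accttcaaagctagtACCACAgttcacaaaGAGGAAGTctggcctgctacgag
Ffar4 (chr19:38096931-38096968, + strand): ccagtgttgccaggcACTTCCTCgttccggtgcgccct
Tlr11 (chr14:50357766-50357815, + strand): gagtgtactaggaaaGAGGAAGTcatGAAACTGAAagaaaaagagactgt
Jaml (chr9:45079133-45079182, + strand): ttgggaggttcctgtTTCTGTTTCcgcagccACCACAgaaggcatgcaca
Kmo (chr1:175632075-175632112, + strand): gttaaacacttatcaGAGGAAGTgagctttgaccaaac
Klre1 (chr6:129577969-129578056, + strand): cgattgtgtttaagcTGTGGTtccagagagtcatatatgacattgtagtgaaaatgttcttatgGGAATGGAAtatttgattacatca
Xcl1 (chr1:164935729-164935764, - strand): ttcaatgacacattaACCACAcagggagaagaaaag

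The PU.1 motif was present in the windows of 8 of 76 dipping genes (10.5%), against 3.3% of 10701 measured genes with a window. The RUNX motif was present in 26.3% against 13.1%, the interferon response element in 14.5% against 7.6%, the E-box CAGGTG in 28.9% against 17.6%, and the composite element in 9.2% against 7.4%. The AP-1 motif TGANTCA (2.6% against 5.5%) and the NF-kB motif GGAANNCCC (2.6% against 7.2%) were at lower shares, and the RBPJ motif GTGGGAA (5.3% against 5.9%) and the large MAF motif TGCTGAC (5.3% against 4.1%) at similar ones; none of these shares was tested. Median GC content was 53.8% in the windows of dipping genes and 60.0% in all windows, and its part in these shares was not tested. Counted from the start site, the Tlr11 window held a PU.1 match at position -133 and an interferon response element close by at -122. The Clnk window held a RUNX match and a PU.1 match, and the Jaml window an interferon response element and a RUNX match.

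The 15 arrays lay on 2 slides, with 3 wildtype, 3 CD11c-negative and 2 CD11c-positive arrays on slide 1. The 75th percentile of the processed signal was 358.6 to 562.4, 45.7% to 58% of spots were well above background and none was saturated. Itgax itself had mean normalized levels of 4.21, 5.93 and 7.29 in wildtype, CD11c-negative and CD11c-positive cells and was well above background on all 15 arrays, so the CD11c-negative disease cells carried CD11c mRNA. Adgre1, which encodes F4/80, had levels of 7.34, 7.74 and 7.31. The Mc4r probe was not well above background on any array and gives no check of the genotype.

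The dips were mostly shallow and rested on dim probes. The median dip was 1.41 and the largest 4.59, with 18 genes at 2 or more and 58 under 1.5. Mean levels of the 99 genes had a median of -1.82 in wildtype, -4.24 in CD11c-negative and -1.62 in CD11c-positive cells, where a level is the log2 processed signal minus that of the array's 75th percentile, and the wildtype median over all genes was 1.01. In the CD11c-negative cells, 36 of the 99 genes were not well above background on any array, against 1.08% of all genes, 27 were so on 1 to 4 arrays and 36 on all 5. The 36 genes measured on all 15 arrays (36.4%, against 88.1% of all genes) had a median dip of 1.36. For the 36 undetected genes an approximate bound of the distance was used. The dim group was set to the smallest signal on each array that the scanner software called well above background, unless the gene's value exceeded it. Some probes above that signal were still not well above background, so the bound is not strict. That holds for every fold given below as at least a value. Only 8 of the 36 genes were at least 2-fold lower than both groups on that bound. The set depended on the background treatment. With normexp background correction, which compresses low signals, 20 genes still met the rule, all of them among the 99, and the median dip was 0.52.

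The 20 genes that met the rule under both background corrections were Gpr141b, Gcsam, Clnk, Btla, Wdr86, Tlr11, Cyp2s1, Jaml, Tbc1d4, Ap1s3, Xcl1, Cd7, Adgrg5, Klrd1, P2ry10, Kmo, Cbfa2t3, Bcl11a, Gzma and Itgb7, and 15 of them were well above background on all 15 arrays. In 89 of the 99 genes every CD11c-negative array lay below every array of both other groups, as in 7.03% of all genes, a count that the rule largely fixes. The 10 with overlap were Gzmc, Rab30, Podnl1, Zfp69, Nsg2, H2ap, Cd160, Mterf2, Speer5-ps1 and Ttc25.

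**Figure D1:**
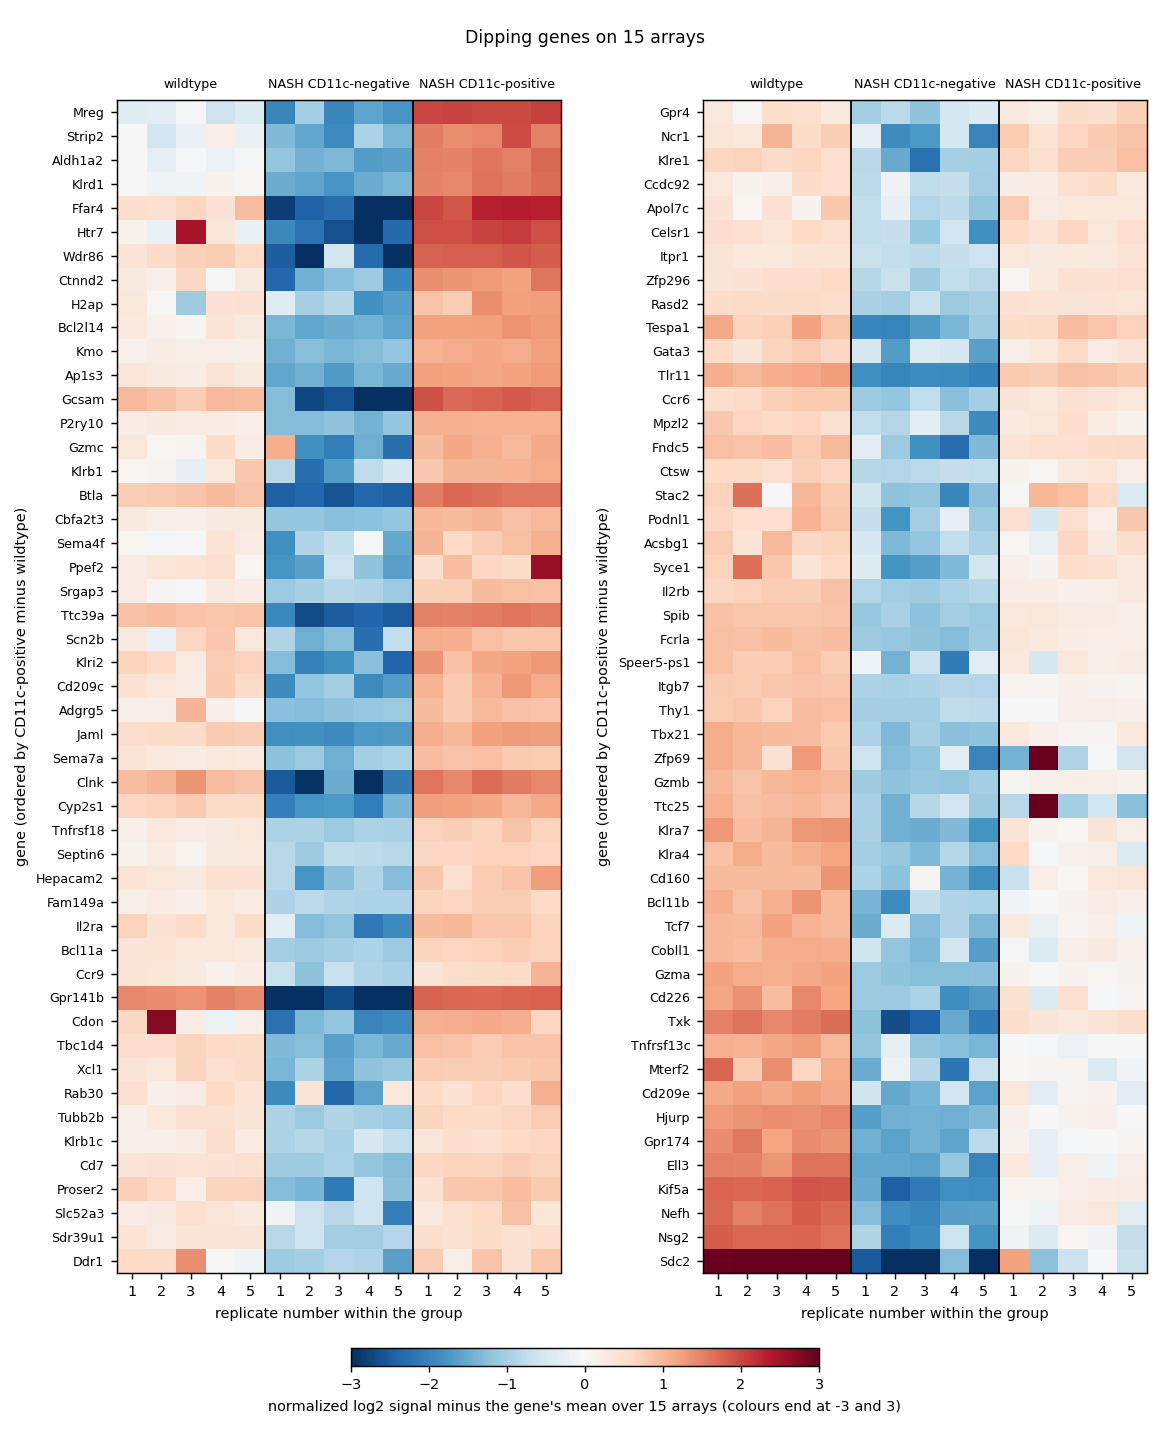
Normalized log2 signal of all but 1 of the 99 genes (rows, ordered by the difference between CD11c-positive and wildtype cells) on the 15 arrays (columns, by group and replicate number), as the difference from the gene's mean over all arrays. The middle block of CD11c-negative arrays is blue in nearly every row; the blocks on either side change order from the first genes, Mreg and Strip2, to the last, Sdc2. Single dark cells in Zfp69 and Ttc25 belong to CD11c-positive replicate 2.

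**Figure D2:**
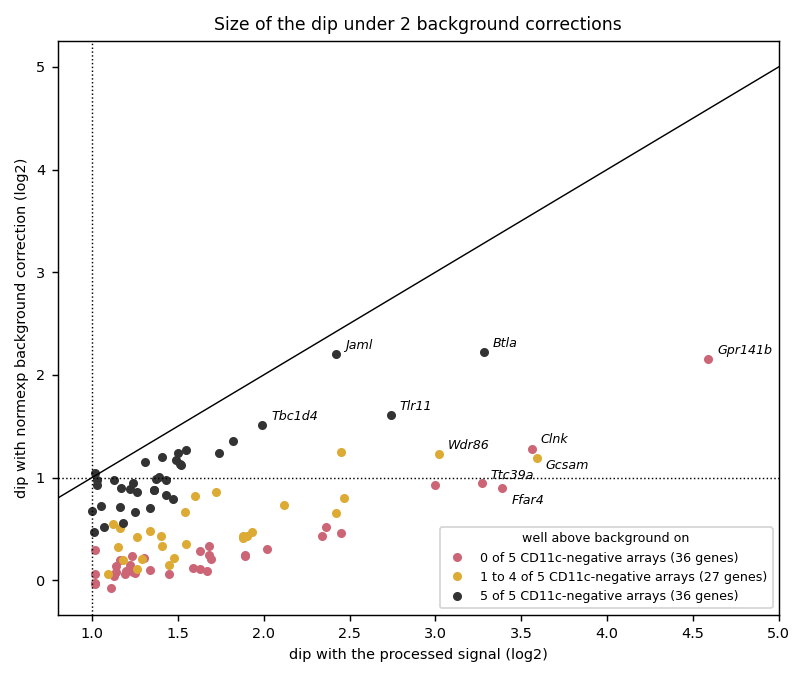
Dip of each of the 99 genes with the processed signal (horizontal axis, log2) and with normexp background correction (vertical axis, log2), coloured by the number of CD11c-negative arrays well above background; the solid line marks equal values and dotted lines the threshold of 1. Itgb7 alone lies above the line of equal values (1.02 and 1.04), Btla and Jaml are highest among genes measured on all 5 CD11c-negative arrays on the vertical axis (2.22 and 2.20), and 20 genes lie at or above 1 on both axes.

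The 99 dipping genes were, in the CD11c-positive cells, higher than wildtype about as often as lower. By limma over all genes, 39 of the 99 were higher in CD11c-positive disease cells than in wildtype cells at an adjusted p under 0.05 (39.4%, against 51.4% of all genes), 32 were lower (32.3%, against 26.3%) and 28 did not pass, against 77.6% of all genes that passed in either direction. With normexp 37 were higher and 39 lower (6646 and 3590 of all genes). The median difference was 0.13, beside 0.16 over all genes, and the median size of the difference 0.64, beside 0.37. At least 2-fold differences were found in 11 genes that were higher and 14 that were lower (6.65% and 7.02% of all genes). In 74 genes (74.7%, against 86.2% of all genes) the CD11c-positive mean lay within 1 of the wildtype mean. No array of 1 group lay within the range of the other in 40 genes that were higher and 32 that were lower (46.4% and 22.9% of all genes). Of the 99 genes, 10 were well above background on fewer than 4 wildtype arrays and 11 on fewer than 4 CD11c-positive arrays. The filter kept these through the other of the 2 groups, which favours 1 direction. Passing as higher among them were Cd209c, Ctnnd2, Scn2b, H2ap and Sema4f. Passing as lower were Cd226, Gpr174, Klra4, Nsg2, Cd160, Cd209e, Mterf2 and Speer5-ps1. Among the 36 genes measured on all 15 arrays, 20 were higher (55.6%), 13 lower (36.1%) and 3 did not pass. Of all 11798 genes measured on all 15 arrays, 6535 were higher and 2913 lower.

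Over all genes 66.2% of 10392 calls in this comparison were higher, and quantile normalization moved that to 54.4%, with 42 of the dipping genes higher and 30 lower. The fit shares 1 spread over the 3 groups, and the dim CD11c-negative signals scatter widely (median SD of 0.334 in the dipping genes, beside 0.116 in wildtype cells). With only the 2 groups compared 80 of the 99 genes passed, 44 higher and 36 lower, beside 10548 of all 13390 genes (6929 higher, 3619 lower). With slide 1 alone 58 passed, 29 in each direction, and with slide 2 alone 71, beside 9697 and 10097 of all genes.

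**Figure D3:**
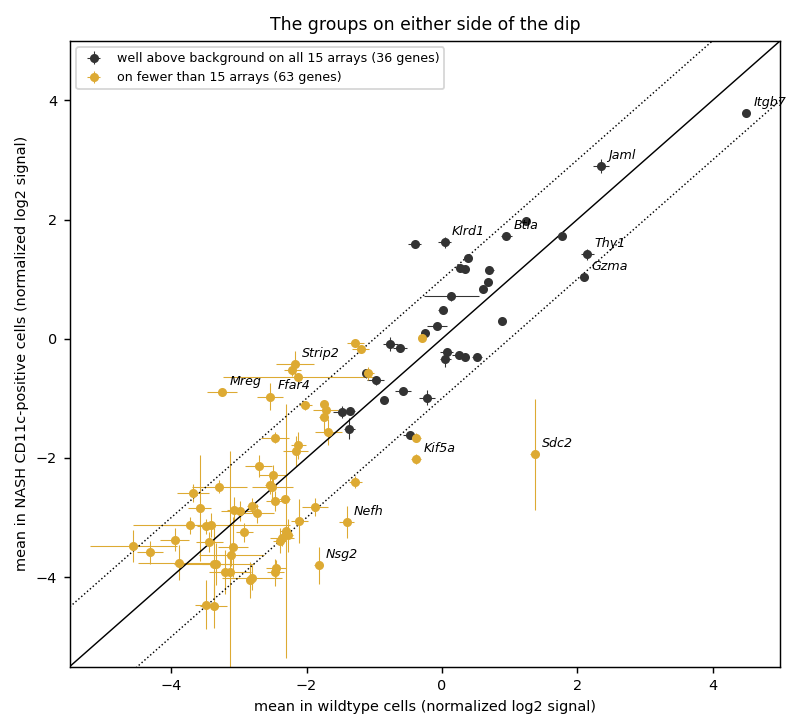
Mean normalized log2 level of each of the 99 genes in wildtype cells (horizontal axis) and in CD11c-positive disease cells (vertical axis), with SD bars over 5 arrays; the solid line marks equal levels, dotted lines a difference of 1, and black points are genes well above background on all 15 arrays. Mreg, Strip2, Klrd1 and Ffar4 lie above the upper line and Sdc2, Nsg2, Nefh and Kif5a below the lower one, while 74 genes lie between the lines.

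Surface receptors of immune cells were among the deepest dips. Btla, an inhibitory receptor of the immunoglobulin family, had levels of 0.85, 0.90, 0.96, 1.07 and 0.96 in wildtype cells, -2.34, -2.24, -2.48, -2.24 and -2.34 in CD11c-negative cells and 1.64, 1.83, 1.76, 1.70 and 1.69 in CD11c-positive cells. The 3 groups did not overlap, and the wildtype and CD11c-positive means were 9.69 and 16.6 times the CD11c-negative mean. The CD11c-positive level was 0.78 ± 0.0523 (SE) above wildtype (adjusted p = 3.65e-09). Jaml, a junctional adhesion molecule whose upstream region is shown above, was measured at 2.25, 2.28, 2.28, 2.51 and 2.46 in wildtype cells, at -0.12, -0.08, -0.18, 0.01 and 0.03 in CD11c-negative cells and at 2.83, 2.73, 2.95, 3.00 and 2.99 in CD11c-positive cells. It was 0.54 ± 0.0662 higher in CD11c-positive than in wildtype cells (adjusted p = 2.72e-06), and the CD11c-negative arrays sat at about the array's 75th percentile while the others sat well above it.

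Tlr11, a Toll-like receptor for microbial protein ligands, went the other way on either side of its dip. Its levels were 0.06, -0.06, 0.06, 0.09 and 0.22 in wildtype cells, -2.88, -3.01, -2.92, -2.94 and -3.06 in CD11c-negative cells and -0.24, -0.31, -0.15, -0.17 and -0.24 in CD11c-positive cells, which were lower than wildtype by a small margin (-0.29 ± 0.0505, adjusted p = 9.3e-05). Itgb7, the integrin beta 7 subunit that takes lymphocytes to the gut, ranged from 4.45 to 4.55 in wildtype, 2.72 to 2.82 in CD11c-negative and 3.77 to 3.84 in CD11c-positive cells. Its 3 groups were far apart relative to their spread, and the CD11c-positive level lay between the others (-0.72 ± 0.028 against wildtype, adjusted p = 7.29e-12).

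Sdc2, the heparan sulfate proteoglycan syndecan-2, had the largest difference between the groups on either side. It was at 1.30, 1.33, 1.34, 1.38 and 1.48 in wildtype cells and at -0.46, -2.90, -2.30, -1.72 and -2.33 in CD11c-positive cells, a difference of -3.31 ± 0.445 (adjusted p = 7.84e-06). CD11c-positive replicate 1 was the highest of its group, and without it the difference was -3.68. The CD11c-negative levels were -4.18, -4.79, -5.41, -2.96 and -4.70, well above background on 2 arrays. Fcrla, a B cell protein related to Fc receptors, was also higher in wildtype cells (0.30 to 0.39) than in CD11c-positive cells (-0.36 to -0.21), with CD11c-negative cells at -1.87 to -1.66; the difference of CD11c-positive from wildtype was -0.64 ± 0.0426 (adjusted p = 3e-09).

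Of 17 surface and secreted proteins outside the receptor families below, 6 were higher in CD11c-positive than in wildtype cells and 6 lower (51.4% and 26.3% of all genes). A further 5 did not pass, and the median was -0.29. With normexp 4 were higher and 9 lower. Besides Btla and Jaml, those higher were Hepacam2, the semaphorins Sema7a and Sema4f, and the lectin Cd209c, which is related to DC-SIGN. Cd209c ranged from -4.20 to -3.64 in wildtype and -3.65 to -3.13 in CD11c-positive cells (0.58 ± 0.171, adjusted p = 0.00651), and its call was lost with normexp (0.06, adjusted p = 0.59) and within slide 1 (0.57). In wildtype cells Cd209c was well above background on 2 arrays and Sema4f on 0. Besides Tlr11, Itgb7, Sdc2 and Fcrla, those lower were the lectin Cd209e and Tnfrsf13c, the receptor for the B cell survival factor BAFF. The Hedgehog co-receptor Cdon had a difference of 0.29 (adjusted p = 0.55) and wildtype levels of -3.51, -1.40, -3.90, -4.31 and -3.94, of which replicate 2 stood apart; without that array the difference was 0.79 (adjusted p = 0.00393). The collagen receptor kinase Ddr1, the adhesion protein Mpzl2, the irisin precursor Fndc5 and the proteoglycan Podnl1 also did not pass.

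**Figure D4:**
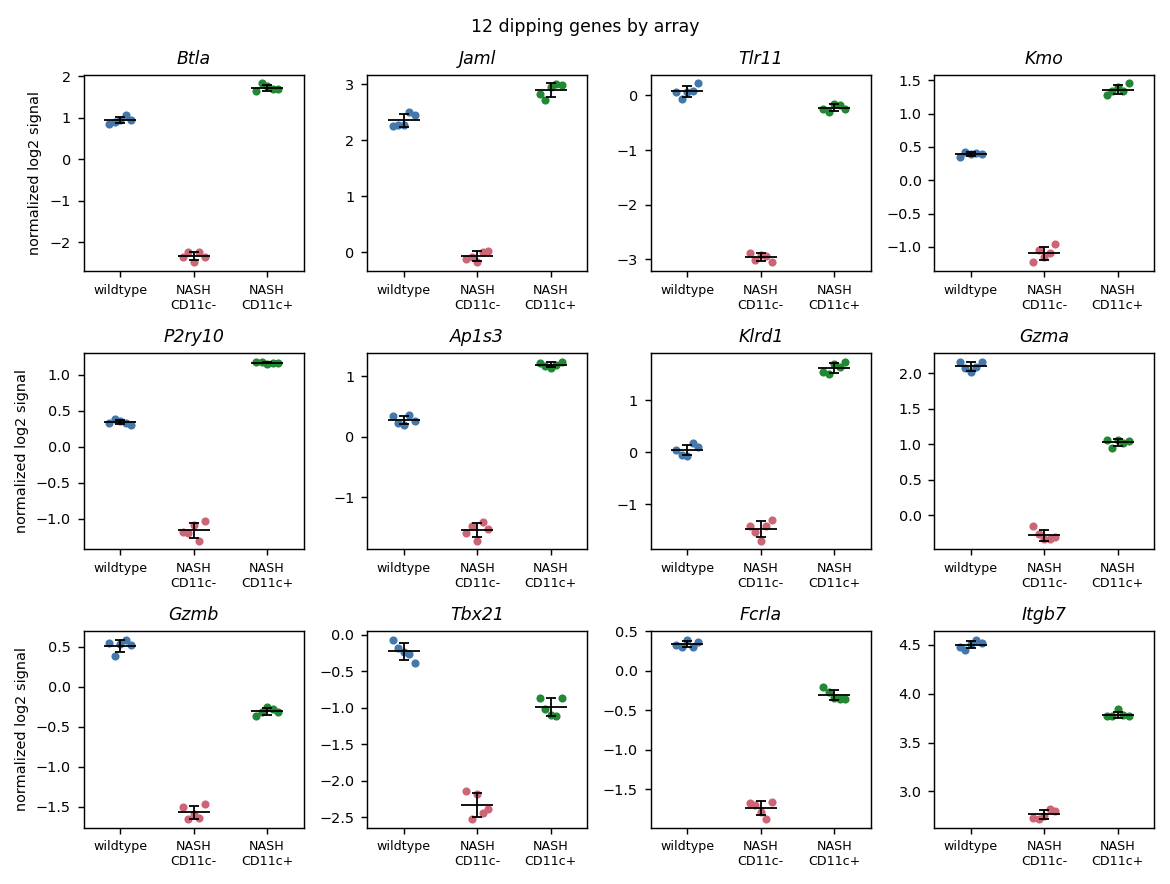
Normalized log2 level of 12 of the dipping genes on each array (coloured points), with the group mean (horizontal bar) and SD over 5 arrays, in wildtype, CD11c-negative and CD11c-positive disease cells; each panel has its own vertical scale. The CD11c-negative points lie lowest in every panel, and the CD11c-positive points lie above wildtype in Btla, Jaml, Kmo, P2ry10, Ap1s3 and Klrd1 and below it in Tlr11, Gzma, Gzmb, Tbx21, Fcrla and Itgb7.

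G protein-coupled receptors gave 11 of the 99 genes. Of these, 6 were higher in CD11c-positive than in wildtype cells and 2 lower (51.4% and 26.3% of all genes), and 3 did not pass (median 0.34). Gpr141b, an orphan receptor, had the deepest dip of the set. Its levels were -0.27, -0.31, -0.38, -0.22 and -0.29 in wildtype cells and 0.04, 0.00, -0.01, 0.02 and 0.05 in CD11c-positive cells, while the CD11c-negative values of -4.77, -4.83, -4.40, -5.61 and -4.81 were not well above background on any array. On the approximate bound described above, wildtype cells were at least 13.6-fold and CD11c-positive cells at least 16.9-fold higher. All 5 CD11c-positive arrays were above all wildtype arrays, by 0.31 ± 0.154, but the adjusted p was 0.0768; it was 6e-06 with only those 2 groups compared and ranged from there to 0.304 over the alternatives.

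Receptors for lipids differed among themselves. Ffar4, which binds long-chain fatty acids, was at -2.62, -2.66, -2.49, -2.70 and -2.21 in wildtype cells and -1.15, -1.28, -0.81, -0.78 and -0.81 in CD11c-positive cells, 1.57 ± 0.18 higher (adjusted p = 1.43e-06), and was not well above background in CD11c-negative cells, from which they differed at least 2.87-fold and at least 8.52-fold. P2ry10, a receptor for lysophosphatidylserine, ranged from 0.31 to 0.38 in wildtype, -1.30 to -1.03 in CD11c-negative and 1.15 to 1.18 in CD11c-positive cells. The 3 ranges did not overlap, and the CD11c-positive cells were 0.83 ± 0.0412 above wildtype (adjusted p = 1.17e-10). Gpr174, another lysophosphatidylserine receptor, had the opposite order on either side, with -2.66 to -2.25 in wildtype and -4.08 to -3.73 in CD11c-positive cells (-1.40 ± 0.135, adjusted p = 2.14e-07). It was well above background on 5 wildtype, 0 CD11c-negative and 3 CD11c-positive arrays. The filter therefore kept Gpr174 through wildtype cells, which favours that direction.

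Htr7, a serotonin receptor, was not well above background in CD11c-negative cells and 1.48 ± 0.423 higher in CD11c-positive than in wildtype cells (adjusted p = 0.00533). Its wildtype levels of -2.52, -2.85, -0.16, -2.26 and -2.82 overlapped with the CD11c-positive levels of -0.69, -0.70, -0.59, -0.54 and -0.69 through replicate 3 alone, and without that array the difference was 1.97.

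The chemokine receptors Ccr6 and Ccr9 differed in direction: Ccr6, the receptor of CCL20, was lower in CD11c-positive than in wildtype cells (-0.30 ± 0.082, adjusted p = 0.00363) and Ccr9, the receptor of CCL25, was higher (0.34 ± 0.12, adjusted p = 0.019). Neither passed with slide 1 alone, and Ccr9 did not pass with normexp (0.08, adjusted p = 0.197). The adhesion receptor Adgrg5 was higher, and Gpr4 and the planar polarity receptor Celsr1 did not pass.

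Receptors, effectors and signalling proteins known from killer cells and T cells were the largest group, with 22 genes. Of these, 7 were higher in CD11c-positive than in wildtype cells and 10 lower (51.4% and 26.3% of all genes), and 5 did not pass. The median was -0.06, and 0.05 with quantile normalization. Klrd1, the CD94 subunit of inhibitory and activating receptors that is also carried by some dendritic cells, was at 0.05, -0.05, -0.07, 0.18 and 0.09 in wildtype, -1.42, -1.53, -1.70, -1.42 and -1.30 in CD11c-negative and 1.55, 1.51, 1.69, 1.63 and 1.74 in CD11c-positive cells. It was 1.58 ± 0.0712 above wildtype in CD11c-positive cells (adjusted p = 3.57e-11). The granzymes had the reverse order on either side. Gzma was at 2.16, 2.07, 2.01, 2.08 and 2.16 in wildtype, -0.16, -0.26, -0.34, -0.34 and -0.31 in CD11c-negative and 1.06, 0.95, 1.06, 1.01 and 1.05 in CD11c-positive cells, and Gzmb ranged from 0.39 to 0.58, -1.65 to -1.47 and -0.37 to -0.25. CD11c-positive cells were below wildtype by -1.07 ± 0.0404 for Gzma (adjusted p = 4.89e-12) and by -0.83 ± 0.0433 for Gzmb (adjusted p = 2.04e-10), and no group overlapped another.

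Other natural killer cell receptors did not share 1 direction. Il2rb, the beta chain of the interleukin 2 receptor, was lower in CD11c-positive than in wildtype cells (-0.53 ± 0.0509, adjusted p = 1.96e-07), Klrb1c, known as NK1.1, was higher (0.24 ± 0.0904, adjusted p = 0.0262), and Klre1 (0.09, adjusted p = 0.693) and Ncr1, known as NKp46 (0.10, adjusted p = 0.782), did not pass. The Klrb1c call was lost without any 1 of wildtype replicates 1, 2 or 3 or CD11c-positive replicates 4 or 5 (0.21 to 0.23 without them), within slide 2 (0.18) and with normexp (0.08). Klri2 was higher (0.58 ± 0.188, adjusted p = 0.0114) over all arrays but did not pass within either slide. Of 23 measured Klr genes on chromosome 6, 15 had their lowest mean in CD11c-negative cells (22.1% of all genes). Among these were the 7 of the set, which the rule places there (0.814% of all genes met it). Klrb1b and Klrb1f were lowest there by only 0.07 and 0.13. Of the 7, Klra4 and Klra7, of the Ly49 family, have near-identical relatives, so their probes may read more than 1 gene.

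Also higher were Klrb1, Xcl1, the chemokine that draws cross-presenting dendritic cells, Cd7, and Tnfrsf18, known as GITR. Also lower were Klra4, Klra7, the cytotoxic cell receptors Cd160 and Cd226, cathepsin W (Ctsw), Thy1 and the Tec family kinase Txk (-1.13 ± 0.211, adjusted p = 0.000191). Thy1, a surface protein of T cells, ranged from 2.02 to 2.24 in wildtype, 0.27 to 0.55 in CD11c-negative and 1.31 to 1.51 in CD11c-positive cells (-0.73 ± 0.0668 against wildtype, adjusted p = 1.27e-07). Il2ra, the alpha chain of the interleukin 2 receptor (0.34 ± 0.252, adjusted p = 0.228), Tespa1, which takes part in T cell receptor signalling (-0.20 ± 0.17, adjusted p = 0.288), and Gzmc did not pass. Il2ra passed when the CD11c-negative arrays were left out of the fit (adjusted p = 0.00174) and within slide 2, and Tespa1 with normexp (-0.21, adjusted p = 0.00431). Gzmc had CD11c-negative values of -1.63, -4.53, -4.78, -4.19 and -4.97, of which replicate 1 lay within the CD11c-positive range.

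Signalling and vesicle traffic proteins gave 14 genes. Of these, 7 were higher in CD11c-positive than in wildtype cells and 2 lower (51.4% and 26.3% of all genes), and 5 did not pass (median 0.60). Mreg, melanoregulin, which acts in organelle transport, had the largest rise of the set. It was at -3.26, -3.23, -2.93, -3.53 and -3.32 in wildtype and -0.89, -0.88, -0.92, -0.91 and -0.84 in CD11c-positive cells (2.37 ± 0.154, adjusted p = 2.45e-09) and not well above background in CD11c-negative cells, at least 8.94-fold below CD11c-positive cells and at least 1.73-fold below wildtype. Strip2 was also higher (1.73 ± 0.169, adjusted p = 2.43e-07), with CD11c-positive replicate 4 above the rest of its group. Gcsam, a germinal centre signalling protein, was 0.90 ± 0.302 higher (adjusted p = 0.014) and well above background on 1 CD11c-negative array.

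Clnk, an adaptor of the SLP-76 family, dipped by 3.56 and was at least 5.05-fold and 7.31-fold below wildtype and CD11c-positive cells; the latter differed by 0.53 (adjusted p = 0.111). Tbc1d4, which regulates Rab proteins in vesicle transport, was measured on all arrays, at 0.63 to 0.77 in wildtype, -1.52 to -1.17 in CD11c-negative and 0.88 to 1.02 in CD11c-positive cells (0.28 ± 0.0583 against wildtype, adjusted p = 0.000456). Its second probe had the opposite sign in that comparison (-0.53), and the mean of its probes gave -0.12. Nsg2, a neuronal vesicle protein, was lower (-1.99 ± 0.246, adjusted p = 3.3e-06), with CD11c-positive cells well above background on 3 of 5 arrays. Itpr1, the inositol trisphosphate receptor that releases calcium, had nearly equal levels on either side (1.70 to 1.81 in wildtype and 1.66 to 1.81 in CD11c-positive cells; -0.05 ± 0.0375, adjusted p = 0.267) around 0.61 to 0.76 in CD11c-negative cells. The adaptor subunit Ap1s3, Bcl2l14 and Srgap3 were higher, Rasd2 was lower, and Rab30, Ppef2 and Stac2 did not pass.

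Transcription and nuclear proteins, 14 genes, included 3 that were higher and 7 that were lower in CD11c-positive than in wildtype cells (51.4% and 26.3% of all genes). The other 4 did not pass, and the median was -0.67. With quantile normalization 3 were higher and 7 lower too, and with normexp 3 and 10. Tbx21, the T-bet factor of natural killer and type 1 T helper cells, was at -0.07, -0.18, -0.23, -0.26 and -0.39 in wildtype, -2.14, -2.52, -2.18, -2.44 and -2.38 in CD11c-negative and -0.86, -1.02, -1.10, -1.11 and -0.86 in CD11c-positive cells (-0.77 ± 0.0825 against wildtype, adjusted p = 7.1e-07). Spib, an Ets factor of B cells and plasmacytoid dendritic cells, ranged from 0.84 to 0.93, -1.20 to -0.94 and 0.22 to 0.38 (-0.58 ± 0.0449, adjusted p = 1.78e-08). Bcl11a, a zinc finger factor of B cells and dendritic cells, went the other way, from -0.30 to -0.20 in wildtype and -1.71 to -1.56 in CD11c-negative to 0.05 to 0.14 in CD11c-positive cells (0.34 ± 0.0325, adjusted p = 2.28e-07).

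Tcf7, the T cell factor TCF-1, was lower in CD11c-positive than in wildtype cells (-0.99 ± 0.168, adjusted p = 7.9e-05), as was the elongation factor gene Ell3 (-1.46 ± 0.135, adjusted p = 1.36e-07), and both were undetected in CD11c-negative cells. The T cell factor Bcl11b, the centromere chaperone Hjurp and Mterf2 were lower too, the corepressor Cbfa2t3 and the histone gene H2ap higher, and Gata3, Zfp296, Zfp69 and Syce1 did not pass. Cbfa2t3 rested on its brightest probe, since a second kept probe showed no dip (-0.04).

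Among 7 enzymes and transporters, 3 were higher in CD11c-positive than in wildtype cells and 1 lower (51.4% and 26.3% of all genes), and 3 did not pass (median 0.21). Kmo, kynurenine 3-monooxygenase of tryptophan breakdown, was at 0.35, 0.43, 0.39, 0.41 and 0.39 in wildtype, -1.23, -1.05, -1.15, -1.09 and -0.96 in CD11c-negative and 1.27, 1.34, 1.39, 1.34 and 1.45 in CD11c-positive cells. It was 0.96 ± 0.046 above wildtype in CD11c-positive cells (adjusted p = 6.9e-11), and its second probe dipped as well (1.71). Aldh1a2, which makes retinoic acid, was 1.67 ± 0.0899 above wildtype (adjusted p = 2.74e-10), at -0.62 to -0.37 against -2.39 to -2.08, and was well above background on 3 CD11c-negative arrays. The cytochrome P450 Cyp2s1 was 0.51 ± 0.105 higher (adjusted p = 0.000449). Apol7c (0.02, adjusted p = 0.905), the riboflavin transporter Slc52a3 and Sdr39u1 did not pass, and the fatty acid activating enzyme Acsbg1 was lower.

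Of 6 genes for cytoskeleton, junction and channel proteins, 4 were higher and 2 lower in CD11c-positive than in wildtype cells (51.4% and 26.3% of all genes, median 0.37). Lower were genes best known from neurons, the kinesin heavy chain Kif5a and the neurofilament heavy chain Nefh. Kif5a was at -0.44, -0.46, -0.40, -0.30 and -0.31 in wildtype and -2.10, -2.10, -1.99, -1.95 and -1.94 in CD11c-positive cells (-1.63 ± 0.127, adjusted p = 1.96e-08), and Nefh at -1.57 to -1.28 and -3.43 to -2.76 (-1.67 ± 0.132, adjusted p = 2.38e-08). In both the CD11c-negative cells lay lower still, Kif5a with 2 arrays well above background and Nefh with none. Tubb2b, Septin6, Ctnnd2 and the sodium channel subunit Scn2b were higher.

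The remaining 8 genes had other or little known roles, with 3 higher and 2 lower (51.4% and 26.3% of all genes) and 3 not passing (median 0.12). Ttc39a was at -1.79 to -1.69 in wildtype and -1.14 to -1.01 in CD11c-positive cells (0.66 ± 0.1, adjusted p = 2.64e-05), at least 4.93-fold and 7.81-fold above CD11c-negative cells, and a second kept probe dipped by 2.79. Wdr86 was 1.21 ± 0.401 higher (adjusted p = 0.0132) and well above background on 1 CD11c-negative array. Fam149a was higher, Cobll1 and the pseudogene Speer5-ps1 lower, and Proser2, Ccdc92 and Ttc25 did not pass. Ttc25 had CD11c-positive levels of -4.09, 0.56, -4.27, -3.80 and -4.51, so its place in the set came from replicate 2, and the same array alone placed Zfp69, at -5.48, -0.42, -4.95, -4.09 and -4.60. Without replicate 2, Ttc25 differed from wildtype by -1.86 (adjusted p = 9.89e-08).

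Marker lists of other cell types were set beside the dipping genes, of which 28 were on at least 1 of 33 lists and 21 on a cell type list. The conventional dendritic cell list held 8 of them (Gcsam, Btla, Htr7, Jaml, Klrd1, P2ry10, Kmo and Itgb7) among 38 measured of 40 genes, and 7 of the 8 were higher in CD11c-positive than in wildtype cells. Over that whole list 29 genes were higher and 8 lower (51.4% and 26.3% of all genes, median 0.63). With quantile normalization 25 were higher and 10 lower. Its summed signal, in units of the array's 75th percentile, was 616 to 638 in wildtype, 707 to 734 in CD11c-negative and 851 to 868 in CD11c-positive cells, so the sum, which follows the brightest probes, did not dip. By gene, 26 of the 38 had their lowest mean in CD11c-negative cells (22.1% of all genes) and 14 met the rule before genes were left out by name. Against wildtype, 26 were lower in CD11c-negative cells and 10 higher (28.5% and 48.3% of all genes, median -0.85, beside 0.13). In CD11c-positive cells 32 were higher and 4 lower than in CD11c-negative cells (29.9% and 23.2%, median 0.95, beside 0.01). The rule fixes both directions for the 14 genes that met it, so these counts over the list are a description. Xcr1, Htr7 and Mycl were its genes not well above background on any CD11c-negative array. The largest changes on it were those of Spint1 (2.40 higher) and Plpp1 (-2.09).

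The natural killer cell list held 7 of the dipping genes among 13 (Klre1, Ncr1, Tbx21, Gzma, Gzmb, Il2rb and Klrb1c). Of these 7, 1 was higher in CD11c-positive than in wildtype cells, 4 lower and 2 did not pass. Over the list 6 were higher and 5 lower (51.4% and 26.3% of all genes, median 0.10). Its summed signal was 37.9 to 40.6 in wildtype, 40.5 to 47.9 in CD11c-negative and 59.1 to 64.5 in CD11c-positive cells. By gene, 8 of the 13 had their lowest mean in CD11c-negative cells (22.1% of all genes). Against wildtype, 8 were lower and 4 higher in CD11c-negative cells (28.5% and 48.3% of all genes, median -1.25). In CD11c-positive cells 10 were higher and 0 lower than in CD11c-negative cells (29.9% and 23.2% of all genes, median 1.17). The rule fixes both directions for the 7 genes of the set, so these counts are a description. All 13 genes were well above background on at least 1 CD11c-negative array. The T cell list held Tcf7 and Thy1 among 15 measured genes. In CD11c-positive cells 1 was higher and 13 lower than in wildtype cells (51.4% and 26.3% of all genes, median -0.72). Its summed signals were 38.5 to 40.8, 22.4 to 27.5 and 23.7 to 27.2. By gene, 12 of the 15 had their lowest mean in CD11c-negative cells (22.1% of all genes). Against CD11c-negative cells, 11 were higher and 1 lower in CD11c-positive cells (29.9% and 23.2%, median 0.6). The rule fixes both directions for Tcf7 and Thy1. The B cell and plasma cell list held Fcrla among 16, with 1 higher and 15 lower than wildtype in CD11c-positive cells (51.4% and 26.3% of all genes, median -1.59). Its sums were 83.7 to 92.7, 52.1 to 60.6 and 34.9 to 38.2. By gene, 7 of these 16 had their lowest mean in CD11c-negative cells (22.1% of all genes). In CD11c-positive cells 3 were higher and 5 lower than in CD11c-negative cells (29.9% and 23.2% of all genes, median 0.01). In both lymphocyte lists the sums of the 2 disease groups lay below wildtype, Tcf7 in the first and Blk in the second being undetected in CD11c-negative cells. The part of other cell types in the dips was not tested.

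The plasmacytoid dendritic cell list held Spib and Ccr9 among 11 measured genes (6 higher, 4 lower, median 0.28; summed signals of 267 to 292 in wildtype, 265 to 311 in CD11c-negative and 248 to 287 in CD11c-positive cells), and the list of mature migratory dendritic cells held Apol7c among 20 (14 higher, 4 lower, median 0.50). The list of receptors for lipids, nucleotides and amines held 6 of the set, Gpr141b, Ffar4, Htr7, P2ry10 and Gpr174 among them, of 43 measured, of which 27 were higher and 10 lower (median 0.61). Dendritic cell transcription factors (20 measured, 14 higher, 5 lower, median 0.48) held Bcl11a and Spib. Beside the counts of these lists, 51.4% of all genes were higher and 26.3% lower in CD11c-positive than in wildtype cells. Single genes of the set stood on the lists of costimulation and checkpoint ligands (Btla), interleukin and growth factor receptors (Il2ra), Notch and Wnt pathway (Tcf7) and adhesion and integrins (Itgb7), and Ccr6 and Ccr9 on that of chemokine receptors. The neutrophil, monocyte, Kupffer cell, lipid-associated macrophage, pan-macrophage, sinusoidal endothelial and hepatocyte lists held none. The neutrophil list went the other way from the dipping genes. Against wildtype, 12 of its 13 genes were higher in CD11c-negative cells and 1 lower (48.3% and 28.5% of all genes, median 2.64). In CD11c-positive cells 0 were higher and 12 lower than in CD11c-negative cells (29.9% and 23.2% of all genes, median -1.74). Its summed signals were 421 to 441 in wildtype, 1670 to 1820 in CD11c-negative and 672 to 705 in CD11c-positive cells. Its part in the dips was not tested.

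**Figure D5:**
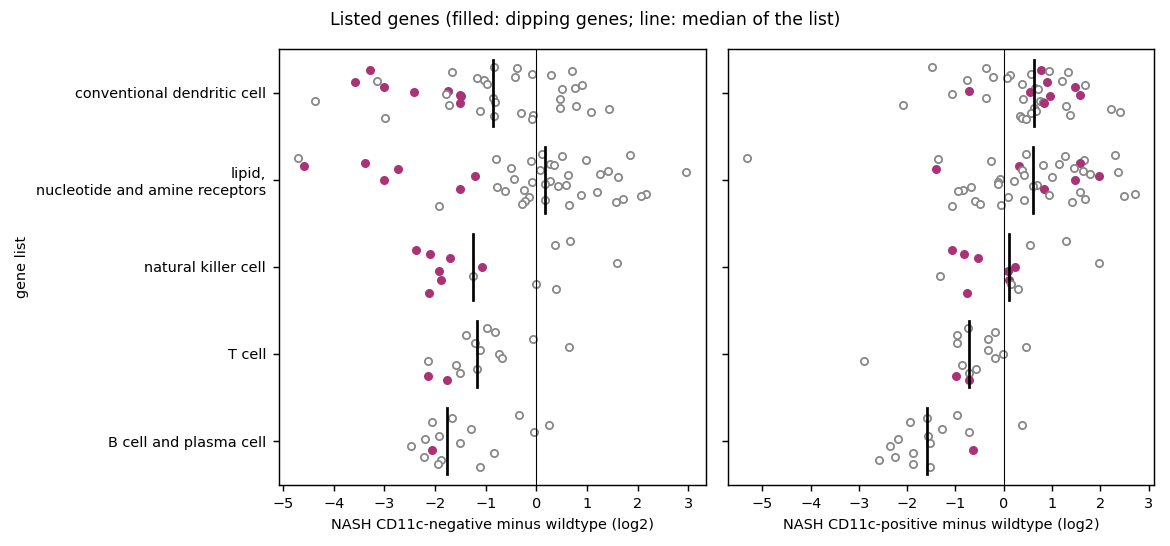
Log2 difference from wildtype of the measured genes of 5 lists (rows) in CD11c-negative (left) and CD11c-positive (right) disease cells, with dipping genes as filled points and the list median as a vertical line. The filled points lie left of 0 in the left panel, as the rule requires, and in the right panel they lie mostly right of 0 for the conventional dendritic cell and receptor lists and left of 0 for the T cell and B cell lists.

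Position in the genome grouped few of the genes. By order in the RefSeq table, 4 pairs were direct neighbours: Gzmc and Gzmb, Klrb1 and Klrb1c, Klre1 and Klrd1, and Jaml and Scn2b. More than 1 kept probe was available for 14 genes, and second probes dipped by 1 or more in Ttc39a, Ctnnd2, Kmo, Fam149a, Septin6, Tubb2b, Klra7, Bcl2l14 and, for 1 of 2 further probes, Hjurp (1.66). They dipped by less in Tbc1d4 (0.74), Klrb1c (0.75), Sdr39u1 (0.32) 1 probe of Srgap3 (0.85) and the other of Hjurp (0.52), and showed no dip in Cbfa2t3 and the other Srgap3 probe (both -0.04).

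Within slide 1, 87 of the 99 genes kept a dip of at least 1 and 99 a dip above 0, and within slide 2, 91 and 98. With slide 1 alone the differences of Gcsam (0.95, adjusted p = 0.0755), Wdr86 (1.22, adjusted p = 0.201) and Htr7 (1.15, adjusted p = 0.216) between CD11c-positive and wildtype cells did not pass. Leaving out single arrays kept 85 genes in the set every time. The dips within a slide and this count use the arrays on which the genes were chosen. They are largely fixed by that choice and are no independent check. The genes nearest the threshold were Ttc25 (1.016), Tnfrsf13c (1.011) and Ctsw (1.002) inside it and Kbtbd11 (0.993), Dtx1 (0.977) and Siglecg (0.971) outside it.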

How the data were processed

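The deposited scanner files hold, per the file headers, a processed intensity per spot of 1-colour Cy3 arrays labelled from 0.1 ug RNA, made by the authors with Agilent Feature Extraction 10.7.3.1, background-subtracted and not scaled between arrays. The deposited log2 value table equals log2 processed signal minus the 75th percentile and the wildtype median (median absolute difference 0.00146) and served as an alternative.

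Control spots (3671 of 62976) and outlier spots (113 to 190 per array) were left out, the log2 signal was scaled to the 75th percentile of non-control probes, and repeated spots were averaged. Of 55681 probes, 28175 were well above background on at least 4 of 5 arrays of a group; 17342 of these had a RefSeq name through their accession, and the brightest stood for its gene (13390 genes). The array's design and the reference differ in build, so coordinates are given only for the RefSeq upstream stretches, in the reference's build. The number of arrays limits the precision.

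CD11c-positive and wildtype cells were compared with limma 3.58.1 (run in R 4.3.3; group means over 15 arrays, 2-sided, Benjamini-Hochberg over 13390 genes, threshold 0.05; 10523 genes had an unadjusted p under 0.05). The fit was also run on simulated data with independent normal noise and 1 spread per gene over the 3 groups. Signals limited by background were not simulated, so that run does not show how the fit does on dim genes. The members, lists and roles were chosen with earlier results of these data known. Values are given for genes with the 20 deepest dips, the 5 largest rises and falls, the 5 highest in wildtype, those on a list and the 3 on either side of the threshold; others were named after their values were seen. Values of 1 gene, counted in the totals, are not reported here. Alternatives changed the background correction (normexp with offset 50), normalization, filter, probe choice, blocks (slide, replicate number), groups fitted and each array left out.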

Additional observations from a re-analysis of the deposited data

Results flagged for a closer look

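In 111 groups of 5 arrays (named genes well above background on all 5) tested for a sample far from the rest (a gap over 0.71 of the group's range), 8 stood out, where chance gives about 1 in 20. In wildtype cells, Htr7 was at -0.16 in replicate 3 and -2.85 to -2.26 in the others, and Klrb1c at -1.23 in replicate 4 and -1.56 to -1.50 in the others. In CD11c-negative cells, Tnfrsf13c was at -1.84 in replicate 2 and -2.94 to -2.74 in the others. In CD11c-positive cells, Strip2 was at -0.06 in replicate 4 (others -0.61 to -0.47), Wdr86 at 0 in replicate 4 (others -0.11 to -0.08), Apol7c at -2.12 in replicate 1 (others -2.64 to -2.56), Itgb7 at 3.84 in replicate 3 (others 3.77 to 3.78) and Tnfrsf13c at -1.74 in replicate 3 (others -1.61 to -1.57). The gaps of Htr7 and Tnfrsf13c in CD11c-negative cells exceed 0.5 log2, and those of Itgb7 and Wdr86 are under 0.1. In the 42 groups of these genes that were dimmer on some array, 4 exceeded the same gap: Cdon in wildtype and CD11c-positive, Gpr174 in CD11c-negative and Ttc25 in CD11c-positive cells.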

How the results depend on the processing

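The set of 99 genes became 20 with normexp and 36 when probes had to be well above background on all 15 arrays, where 33 genes of the set passed between CD11c-positive and wildtype cells, 20 higher and 13 lower (9448 of all 11798 genes passed). It was 109 with quantile normalization, 98 with slide as a block, 100 and 111 within slides 1 and 2, and 93 to 105 without single arrays, when 66 to 73 of the genes passed (36 to 41 higher, 30 to 33 lower) and 10136 to 10500 of all genes (6705 to 6921 higher, 3416 to 3579 lower). Quantile normalization moved the split over all genes from 6876 higher and 3516 lower to 5444 and 4571, and the median from 0.16 to 0.05. Same-numbered samples correlated by -0.2 to 0.37, under 0.1 for replicates 2 and 3 in some groups, so the numbers were not taken as pairs, although 9 of 15 correlated best with their own number; with replicate number as a block 70 of the 99 genes passed (38 higher, 32 lower) and 10776 of all genes.

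Of 51 named genes, 41 passed between CD11c-positive and wildtype cells, beside 77.6% of all genes. The largest rises and falls were named by their size in that comparison, so their passing was partly fixed by the choice. Of the 41 genes, 32 kept direction and call under every alternative in which they were tested. Genes not well above background on every array were left out by the strictest filter, so that alternative is missing for them. Differences between CD11c-positive and wildtype cells changed sign in Klre1 (-0.08 with normexp and within slide 1, -0.04 with replicate and slide blocks), Apol7c (-0.06 with normexp, -0.13 within slide 2, -0.05 and -0.04 without wildtype replicates 2 and 4, -0.07 without CD11c-positive replicate 1, and at most 0.13 without 1 array, without wildtype replicate 5, and 0.18 within slide 1), Tbc1d4 (-0.12 with the mean of its probes), Cdon (-0.11 within slide 1) and Ttc25 (0.54 within slide 1), and the dip of Ttc25 was -0.11 within slide 2. The cause was not tested. Signal over background limits the depth of the dip in the 60 genes well above background on fewer than 4 CD11c-negative arrays.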

Other observations

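Of 10833 kept probes that could not be named through a RefSeq accession, 61 (0.563%) met the same rule, with a largest dip of 3.58; which genes they belong to was not determined. Klr genes outside the set took other orders: Klra8, an activating receptor of natural killer cells, was at -0.63 in wildtype, 0.96 in CD11c-negative and 1.34 in CD11c-positive cells, and Klrk1, known as NKG2D, at 0.01, -1.24 and -1.32. Klrc1 and Klrc3, the NKG2 partners of the Klrd1 product, were at -2.21 and -2.27 in wildtype cells and well above background on 2 CD11c-positive arrays each, where Klrd1 was at its highest mean of the 3 groups. These genes were chosen after their values were seen.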
